A study of Mus musculus with 36 samples.

Results

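The genes described here make serine and one-carbon units or carry out the response governed by the transcription factor ATF4. The set holds 10 genes, Phgdh, Psat1, Psph, Shmt2, Mthfd2, Asns, Atf4, Atf5, Ddit3 and Trib3, of 18194 genes that had a probe set with 1 symbol. Every probe set on the Affymetrix mouse chips 430A and 430B whose annotation gave 1 of these symbols alone was taken, which gave 24, of which 22 were on chip 430A and 2 on chip 430B. The members were chosen by measured values of these hearts, the signals after 6 weeks of Akt1 induction and the share of them that came from 1 heart. Member values from the 6-week induced hearts are therefore given as a description, with no p, and counts past the threshold in comparisons with those hearts follow in part from the choice and support nothing. A filter on dim probe sets left 18 of the 24 for the model, standing for 9 genes, and both probe sets of Psat1 fell below it.

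The samples were whole-heart RNA of mice carrying a tetracycline-controlled, myristoylated Akt1 transgene, Tet-myrAkt1, and MHC-tTA, the tTA transactivator under a myosin heavy chain promoter active in heart muscle cells. All mice carried both transgenes and were labelled male, and no mouse without the transgene was part of the groups. Before induction 4 hearts were taken from mice 12 weeks old. Another 4 came from mice 14 weeks old with the transgene on for 2 weeks, and 4 more had it on for 2 weeks and then off for 2 days (14 weeks and 2 days old). In mice 18 weeks old with 6 weeks of induction 3 hearts were taken, and 3 in mice 20 weeks old in which 2 weeks of repression had followed the 6 weeks, so age increased along the series. Each heart came from 1 mouse, and the spread between hearts is the spread between animals.

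As background, Phgdh, Psat1 and Psph catalyse the successive steps that turn a glycolytic intermediate into serine. Shmt2 and Mthfd2 then pass a carbon of serine to folate inside mitochondria, which feeds the synthesis of purines, thymidylate and formate. ATF4 is translated more when the factor eIF2 is phosphorylated under amino acid shortage, endoplasmic reticulum stress or mitochondrial stress, and the enzymes of serine synthesis, Asns, Atf5, Ddit3 and Trib3 are among its known targets. Mthfd2 is low in most adult tissues and is known as a marker of the mitochondrial stress response in muscle and heart.

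An element bound by ATF4 together with C/EBP proteins, here searched as TGATGNAA on both strands, occurs in the known ATF4 response regions of Asns and Trib3. Promoters of 300 bases, from 250 before to 50 after the start of each gene, were matched by symbol for all 10 genes, 12 promoters in all, from RefSeq (GRCm38.p6). The letters were present in 2 of the 12 member promoters, against 1304 of 32851 promoters of the same length (3.97%). The Asns promoter (chr6:7693160-7693459, minus strand) and the Trib3 promoter (chr2:152344011-152344310, minus strand) are shown 5′ to 3′ because they hold the match, in capitals. The Mthfd2 promoter (chr6:83317555-83317854, minus strand) is shown because Mthfd2 had the largest difference of the set, and its window holds no match.
Asns: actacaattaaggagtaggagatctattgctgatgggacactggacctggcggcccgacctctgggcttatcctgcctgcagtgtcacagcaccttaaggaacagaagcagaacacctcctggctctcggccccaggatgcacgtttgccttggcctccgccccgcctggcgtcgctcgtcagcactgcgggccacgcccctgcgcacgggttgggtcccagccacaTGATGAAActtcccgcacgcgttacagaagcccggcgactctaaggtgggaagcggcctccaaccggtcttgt
Trib3: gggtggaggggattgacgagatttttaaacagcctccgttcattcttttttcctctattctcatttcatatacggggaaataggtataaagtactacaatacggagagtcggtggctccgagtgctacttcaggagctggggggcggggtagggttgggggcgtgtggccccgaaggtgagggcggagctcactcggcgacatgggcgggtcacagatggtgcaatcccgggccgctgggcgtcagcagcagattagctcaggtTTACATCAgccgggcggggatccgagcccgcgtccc
Mthfd2: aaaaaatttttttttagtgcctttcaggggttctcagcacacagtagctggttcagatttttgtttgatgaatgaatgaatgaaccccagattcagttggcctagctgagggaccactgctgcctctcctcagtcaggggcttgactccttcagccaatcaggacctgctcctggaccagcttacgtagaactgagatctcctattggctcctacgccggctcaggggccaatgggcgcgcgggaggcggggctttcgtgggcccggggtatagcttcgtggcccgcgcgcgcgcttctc
The Asns match began 23 bases before the start site (position -23), on the strand of the gene. The Trib3 match began at position 15 after the start and lies on the opposite strand. A match of these letters is a description of the sequence, and its absence elsewhere says only that the letters are not in that window.

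The state of the transgene was read from Akt1 probe set 1425711_a_at. Its signal was 508 to 652 before induction, 1981 to 3481 at 2 weeks on, 696 to 745 after 2 days off, 1851 to 2931 at 6 weeks on and 633 to 837 after 2 weeks off. Hearts 3 and 4 of the group before induction had signals of 2518 and 2170.2 for the female-specific transcript Xist, against at most 92.8 in the other hearts, although all were labelled male. Heart 3 at 6 weeks on differed in the ratio of the 3′ to the 5′ Actb probe set, a measure of RNA integrity, which was 3.71 on 430A arrays and 4.20 on 430B, where all other hearts lay between 0.952 and 1.92. Markers of heart muscle cells were bright in every heart, with a summed signal of 108400 to 176196 at 6 weeks on and 157450 to 207883 before induction. The endothelial marker sum was 3181 to 4254 at 6 weeks on against 4647 to 5566.5 before induction, with 3 of 5 markers called lower and 0 higher. The fibroblast sum was 26280 to 32292 at 6 weeks on against 21393 to 27326, with 2 of 5 called higher there and at 2 weeks on. The macrophage sum was 6152.5 to 9661 after 2 days off and 6716.5 to 9171 after 2 weeks off, against 5045 to 6919 before induction. In these 2 comparisons 0 of 6 macrophage markers were called. The sum of proliferation markers was 593 to 1148 at 6 weeks on against 432 to 643 before induction, with 1 of 6 called higher. At 2 weeks on that sum was 1802 to 2265, above every heart before induction, with 6 of 6 called higher at a median log2 difference of 1.51. In whole-heart RNA, fewer cells of a type and less RNA per cell cannot be told apart, and the part of these markers in the member values was not tested.

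Mthfd2, the mitochondrial methylenetetrahydrofolate dehydrogenase, had the largest difference of the set. Its probe set 1419254_at gave 3876, 1120.4 and 1139 in hearts 1 to 3 at 6 weeks on, against 129, 122, 177 and 133 before induction. Probe set 1419253_at gave 1831, 950.3 and 1078 at 6 weeks on, against 174, 194, 213 and 184 before induction. In both probe sets the lowest 6-week heart lay above every heart of the other 4 groups. The log2 differences from the hearts before induction were 3.22 ± 0.316 and 2.42 ± 0.209 (SE of the model, 3 against 4 hearts). Without heart 1 they were 2.64 and 2.14, and without heart 3 they were 3.50 and 2.51. By ratio of mean signals 1419254_at stood 14.6 times above the hearts before induction with all 3 hearts and 8.06 times without heart 1, and heart 1 alone held 65.4% of the rise in mean signal.

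**Figure D1:**
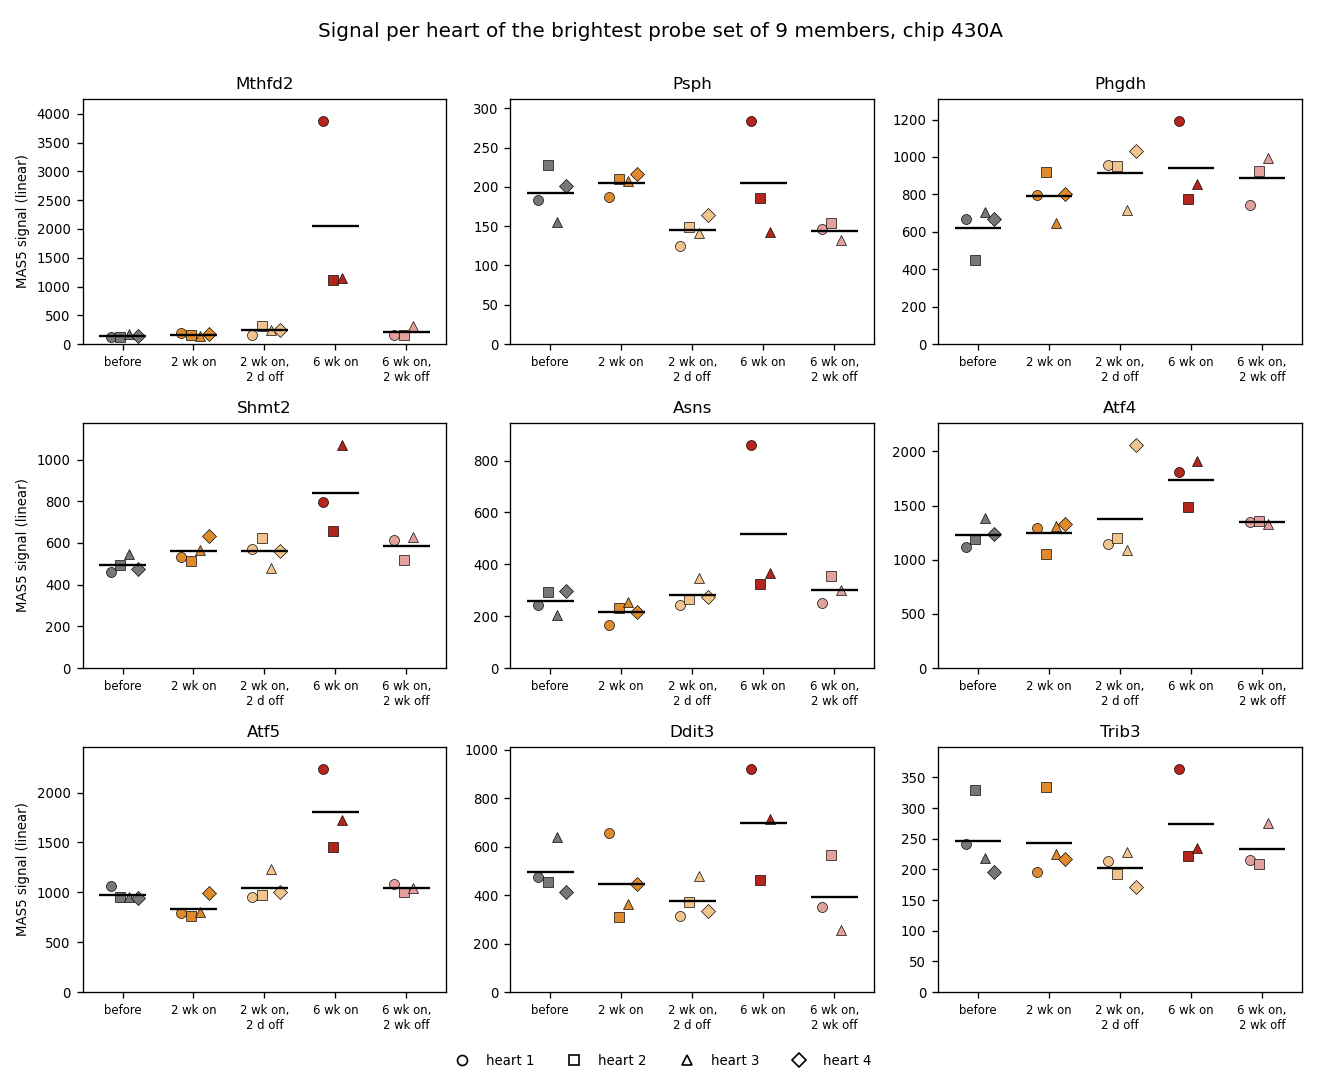
Deposited linear MAS5 signal (y axis) in each heart of the 5 groups (x axis, in order of time) for the brightest probe set of each of the 9 genes that passed the filter, all on chip 430A. Marker shape gives the heart number within its group and the horizontal bar the group mean. Mthfd2 shows 3 hearts of at least 1120.4 at 6 weeks on and none over 315 elsewhere.

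Below that level, Mthfd2 signals at the other times followed a lower range. At 2 weeks on 1419253_at read 272, 271, 231 and 387, a log2 difference of 0.48 ± 0.193 from the hearts before induction (limma, adjusted p = 0.137). After 2 days off it read 292, 425, 257 and 388, all above the hearts before induction, and the log2 difference of 0.67 ± 0.193 passed the threshold (limma, adjusted p = 0.0475). After 2 weeks off it read 384, 355 and 268, a log2 difference of 0.67 ± 0.209 from before induction that did not pass (adjusted p = 0.0807). The call after 2 days off held in 11 of 29 alternative settings, with adjusted p from 0.0232 to 0.149, and it ended without any 1 of the 4 hearts before induction and without both hearts with Xist signal (adjusted p = 0.132). The other probe set, 1419254_at, read 162, 315, 241 and 251 after 2 days off, overlapped the hearts before induction, and was not called (log2 0.60 ± 0.293, adjusted p = 0.252). Both probe sets gave the same order of group means, from 6 weeks on at the top through 2 days off, 2 weeks off and 2 weeks on to the hearts before induction.

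The other folate member, Shmt2, encodes the mitochondrial serine hydroxymethyltransferase, which releases a one-carbon unit from serine. Its brightest probe set 1455084_x_at read 796, 657 and 1069.5 at 6 weeks on, against 460.1, 495, 546 and 477 before induction, and the lowest 6-week heart lay above every heart of the other groups. The log2 difference was 0.69 ± 0.145 with all hearts and 0.71 without heart 1. Heart 3, with the raised Actb ratio, was the highest and held 55.4% of the rise in mean signal, and without it the log2 difference was 0.51. The probe sets of Shmt2 did not move together. Probe set 1426423_at read 336, 307 and 129.7 at 6 weeks on, against 235, 428, 319 and 270.5 before induction, and 1455985_x_at read 47.6, 158 and 258 against 103, 162, 125 and 221. Both overlapped the hearts before induction and gave log2 differences of -0.29 ± 0.224 and -0.10 ± 0.314. Probe set 1434204_x_at, below the filter, read 36.4 to 129.9 at 6 weeks on and 71.2 to 113 before induction.

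Phgdh, phosphoglycerate dehydrogenase, which commits glycolytic carbon to serine, read 1192, 776 and 857 at 6 weeks on in its brightest probe set 1426658_x_at, against 669, 448, 705 and 666 before induction. The groups did not overlap, and the log2 difference was 0.56 ± 0.178 with all hearts and 0.38 without heart 1. This probe set was also high in hearts without induced Akt1. After 2 days off it read 957, 951, 718 and 1032, and after 2 weeks off 743, 924 and 995, and each of these hearts lay above all hearts before induction. Neither difference passed the test, with log2 0.53 ± 0.164 (adjusted p = 0.0649) after 2 days off and 0.49 ± 0.178 (adjusted p = 0.138) after 2 weeks off. A dimmer Phgdh probe set, 1454714_x_at, gave another pattern, with 38.2, 42.5, 50.6 and 121 after 2 days off against 194, 251, 176 and 122 at 2 weeks on. That fall of 1.08 ± 0.327 on the log2 scale passed the test (limma, adjusted p = 0.0266) and held in 20 of 27 alternatives (adjusted p 0.00845 to 0.0769). It ended without heart 1, 2 or 3 at 2 weeks on, without heart 1, 2 or 3 after 2 days off, and with the Actb ratio as a covariate (log2 -1.05, adjusted p = 0.0649). Probe set 1426658_x_at did not match it and stood 0.20 ± 0.164 higher (adjusted p = 0.447). Of the other 2 Phgdh probe sets, 1456584_x_at read 281, 106 and 210.0 at 6 weeks on and overlapped the hearts before induction (98.5 to 197), and 1437621_x_at, below the filter, read 253, 52.6 and 156 against 11.2 to 52.3. The suffix x_at marks probe sets with probes that can also match other transcripts, and 2 more probe sets carried Phgdh together with another symbol and were not used here.

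In the next enzymes of the pathway, Psat1 and Psph, heart 1 stood above the other 6-week hearts in 3 of 4 probe sets. Psat1, phosphoserine aminotransferase, read 228, 72.9 and 62.6 at 6 weeks on in probe set 1451064_a_at, against 56.3, 60.6, 36.8 and 78 before induction. Hearts 2 and 3 lay inside the range of the hearts before induction, and heart 1 held 89.6% of the rise in mean signal. This probe set averaged 16.6% of the trimmed mean of its chip and 1454607_s_at 9.20%, under the filter of 20%, so Psat1 was not tested. Probe set 1454607_s_at read 54, 37.6 and 65.1 at 6 weeks on and 8.9 to 65.4 before induction, with its highest group mean at 2 weeks on (76.3 ± 16.5, SD, n = 4). Psph, phosphoserine phosphatase, is on both chips. On chip 430A it read 284, 186 and 143 at 6 weeks on, against 184, 228, 156 and 201 before induction, and on chip 430B 304, 123 and 157, against 127, 146, 109 and 149. On both chips heart 1 was the highest of all 18 hearts. Heart 3 lay below every heart before induction on chip 430A and above every one of them on chip 430B.

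Psph signals in both repressed groups were below those at 2 weeks on. After 2 days off the 430A signals were 124, 149, 142 and 164, against 187, 210.1, 207 and 216 at 2 weeks on, and on chip 430B they were 110.0, 119, 121 and 115, against 149.8, 186, 197 and 207. After 2 weeks off they were 132 to 153 on 430A and 96.9 to 112 on 430B. Every repressed heart lay below every heart at 2 weeks on, on both chips. The log2 differences of 2 days off from 2 weeks on, -0.39 ± 0.160 and -0.61 ± 0.208, did not pass the threshold (limma, adjusted p = 0.0970 and 0.134). Against before induction neither repressed group was called (limma, adjusted p = 0.284 and 0.759 after 2 days off, 0.363 and 0.596 after 2 weeks off). On chip 430B both overlapped those hearts.

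Asns, asparagine synthetase, a known ATF4 target whose promoter is printed above, read 859.7, 325 and 366 at 6 weeks on in probe set 1451095_at, against 242, 294, 205 and 298 before induction. Every 6-week heart lay above the hearts before induction, but heart 1 was 2.35 times the next. The log2 difference was 0.76 ± 0.237 with all hearts and 0.36 ± 0.190 without heart 1. The ratio of mean signals was 1.99 with all hearts and 1.33 without heart 1. Heart 1 held 77.7% of the rise. A dimmer probe set, 1433966_x_at, below the filter, read 407, 49.7 and 151 at 6 weeks on, again highest in heart 1, and 16.3 to 102 before induction. After 2 weeks off 1451095_at read 249, 354 and 303, which overlapped the hearts before induction.

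Among the regulators, Atf5, a basic leucine zipper factor that drives mitochondrial stress genes, gave 6-week signals above those of every other heart. Its single probe set 1425927_a_at read 2235, 1458 and 1726 at 6 weeks on, against 1068, 948, 948 and 940.3 before induction. No heart of the other groups exceeded 1235. The log2 difference was 0.84 ± 0.138, and without heart 1, 2 or 3 it was 0.68, 0.97 and 0.86. At 2 weeks on it read 789, 761, 803 and 988, which overlapped the hearts before induction at a log2 difference of -0.22 ± 0.128 (limma, adjusted p = 0.329).

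Atf4 encodes the factor itself, which is controlled largely at translation. Its brightest probe set 1448135_at read 1814, 1485 and 1914 at 6 weeks on, against 1113, 1187, 1388 and 1241 before induction. All 3 lay above the hearts before induction, with a log2 difference of 0.48 ± 0.170, and heart 3 was the highest. After 2 days off it read 1143, 1197, 1089 and 2058, so that heart 4 of that group exceeded every 6-week heart. The probe set 1438992_x_at read 376, 270.5 and 846 at 6 weeks on, against 227, 326, 320.4 and 241 before induction, and most of its excess lay in heart 3. In that probe set the signal fell to 217, 198, 187 and 204 after 2 days off, against 568, 323, 350.0 and 375 at 2 weeks on, a log2 difference of -0.83 ± 0.241 (limma, adjusted p = 0.0229). That call held in 26 of 28 alternatives (adjusted p 0.00282 to 0.0843), ending without heart 1 at 2 weeks on or heart 3 after 2 days off. The Actb ratio on chip 430A was 1.04 to 1.18 after 2 days off and 1.26 to 1.92 at 2 weeks on, with no overlap. With that ratio as a covariate the log2 difference was -0.44 ± 0.138 (limma, adjusted p = 0.0423). The 2 highest signals of 1438992_x_at, in heart 3 at 6 weeks on and heart 1 at 2 weeks on, came from the hearts with the highest ratios (3.71 and 1.92). As the ratios of the compared groups do not overlap, that fit cannot tell the ratio and repression apart. Probe set 1448135_at differed by 0.09 ± 0.158 in the same comparison (adjusted p = 0.736). The dimmest Atf4 probe set, 1439258_at, was below the filter with signals of 5.2 to 61.7 over all hearts.

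Ddit3, which encodes CHOP, a factor of the terminal stress response, gave opposite readings on the 2 chips. On chip 430A probe set 1417516_at read 920.2, 460.4 and 713 at 6 weeks on, against 474, 456, 638 and 414 before induction, a log2 difference of 0.42 ± 0.256 with overlapping groups. On chip 430B probe set 1443897_at read 17.9, 17.0 and 14.2 at 6 weeks on, against 89.4, 90.4, 141 and 61.4 before induction, a log2 difference of -1.87 ± 0.494 with no overlap. The 430B probe set was also low in 3 of 4 hearts at 2 weeks on, with 112, 9.68, 18.1 and 14.9, and it read 71.1, 112, 65.5 and 98.0 after 2 days off. Neither the log2 difference of -1.43 ± 0.457 at 2 weeks on from before induction nor that of 1.32 ± 0.457 after 2 days off from 2 weeks on passed the threshold (limma, adjusted p = 0.127 and 0.138). These low signals lie near the offset of 12.3 that was added before the logarithm, so the size of the log2 differences depends on it, and which Ddit3 transcripts each probe set reads was not tested.

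Trib3, a pseudokinase that binds Akt and is a target of ATF4 and CHOP, read 364, 222 and 235 at 6 weeks on in probe set 1426065_a_at, against 241, 329, 218 and 196 before induction. Only heart 1 exceeded the hearts before induction, and the log2 difference was 0.12 ± 0.194, or -0.07 without heart 1. The dimmer 1456225_x_at read 242, 152 and 225 at 6 weeks on, against 73.8, 71.4, 106 and 114 before induction, with no overlap and a log2 difference of 0.85 ± 0.239 (0.75 without heart 1). At 2 weeks on heart 1 of 1456225_x_at read 161, above heart 2 at 6 weeks on, and the other 3 hearts read 56.8 to 107.

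Set against the hearts before induction, 7 of the 18 tested probe sets were called higher at 6 weeks on and 1 lower (Ddit3 on chip 430B), for 7 of 9 genes, where 13.2% of all 33084 tested probe sets were called. The median log2 difference of the 18 was 0.52, against -0.08 over all tested probe sets. Against 2 weeks on, 6 were called higher and 0 lower at 6 weeks on, for 5 genes (4.06% of all called). After 2 weeks off, 5 were called lower and 0 higher than at 6 weeks on, for 4 genes (10.9% of all called). Those were both Mthfd2 probe sets with log2 differences of -2.84 ± 0.338 and -1.75 ± 0.223, Atf4 1438992_x_at with -1.07 ± 0.278, Atf5 with -0.74 ± 0.148 and Shmt2 1455084_x_at with -0.46 ± 0.155. Trib3 1456225_x_at, which passed the filter only with the 6-week hearts, was among the 7 and among the 6 called higher. These 3 comparisons share the 6-week hearts, whose signals chose the members, so nothing is read from their counts.

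Comparisons without the 6-week induced hearts gave few calls. At 2 weeks on against before induction, limma called 0 of 18 member probe sets, with 3 at an unadjusted p under 0.05, where 5.01% of all probe sets were called. After 2 days off against 2 weeks on it called 0 higher and 2 lower, the Atf4 and Phgdh probe sets above, where 9.73% of all were called. After 2 days off against before induction it called 1, Mthfd2 1419253_at, where 3.23% of all were called. After 2 weeks off against before induction it called 0, with 2 at an unadjusted p under 0.05, where 2.57% of all were called. The unadjusted count was 6 after 2 days off against 2 weeks on, and 2 after 2 days off against before induction. The shares given for all probe sets are at the adjusted threshold. The share at an unadjusted p under 0.05 was not computed, so nothing is read from the unadjusted counts. The medians of the 18 log2 differences in these 4 comparisons, in that order, were 0.06, 0.07, 0.0015 and 0.11, and those over all probe sets were -0.03, -0.01, -0.03 and -0.03.

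**Figure D2:**
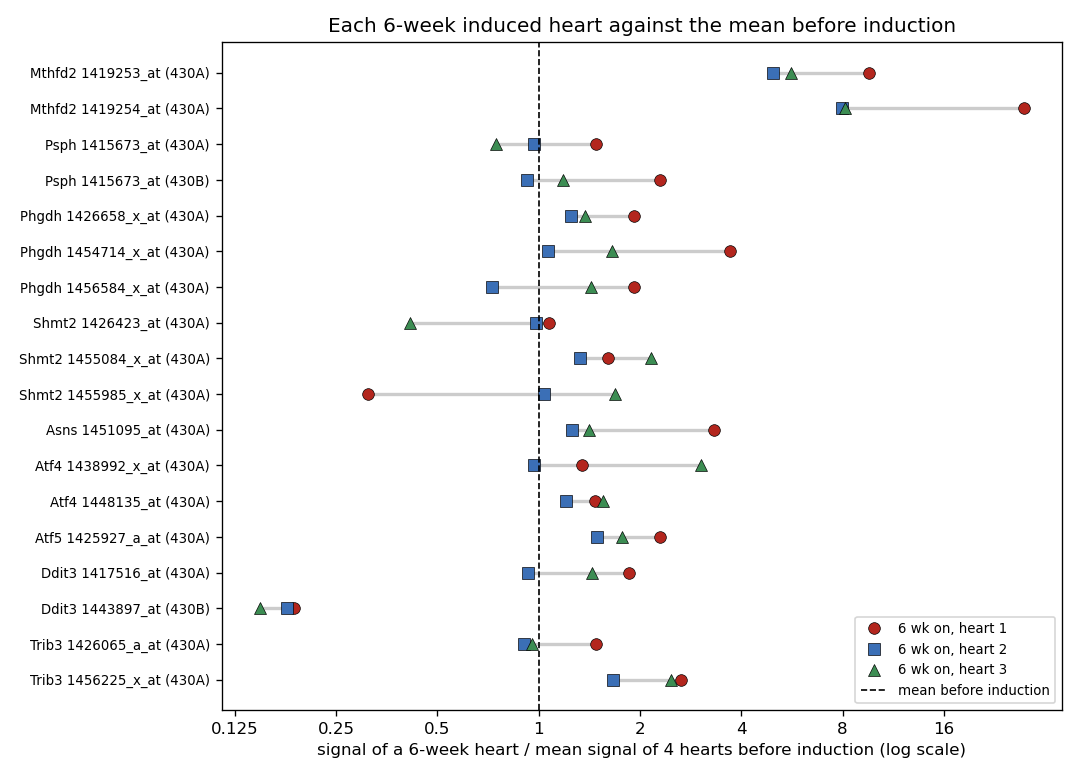
Signal of each of the 3 hearts at 6 weeks on divided by the mean of the 4 hearts before induction (x axis, log scale), for each of the 18 tested member probe sets (rows). Heart 1 stands farthest right in 14 rows, and the 2 Mthfd2 rows have all hearts at 4.97 or more.

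Heart 1 of the 6-week group was the highest of its group in 14 of the 18 tested member probe sets (77.8%), heart 3 in 4 and heart 2 in 0. Over all tested probe sets heart 1 was the highest of the 3 in 33.2% on chip 430A and 34.0% on chip 430B. The share of signal from 1 heart was part of the choice of members, so the excess in heart 1 is built into the set and nothing is read from it. Heart 2 was the lowest of the 3 in 14 of the 18. Averaged over the brightest probe set of each of the 9 genes, the log2 difference from the mean before induction was 1.22 in heart 1, 0.47 in heart 2 and 0.68 in heart 3. All 9 genes were above every heart before induction in heart 1, 6 in heart 2 and 7 in heart 3. The share of all probe sets above those hearts was not computed. As the 6-week signals also chose the members, nothing is read from these counts. The medians over the 9 genes were 0.85 in heart 1, 0.29 in heart 2 and 0.50 in heart 3. The hearts of the other induced and repressed groups had averages between -0.05 and 0.15. That the 6-week averages lie above these follows in part from the choice of members. Heart 1 had an Actb ratio of 1.36, inside the range of the other groups, and the highest Akt1 1425711_a_at signal of its group (2931, against 2312 in heart 2 and 1851 in heart 3). The other Akt1 probe set, 1416657_at, was lowest in heart 1 (537, against 726 and 860). Heart 1 also had the highest sum of atrial markers of its group (16700, against 13568 and 5697) and the lowest endothelial sum (3181, against 4254 and 3362). Its atrial sum lay inside the range of the hearts before induction (1805 to 66544). The part of these traits in the member values was not tested.

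**Figure D3:**
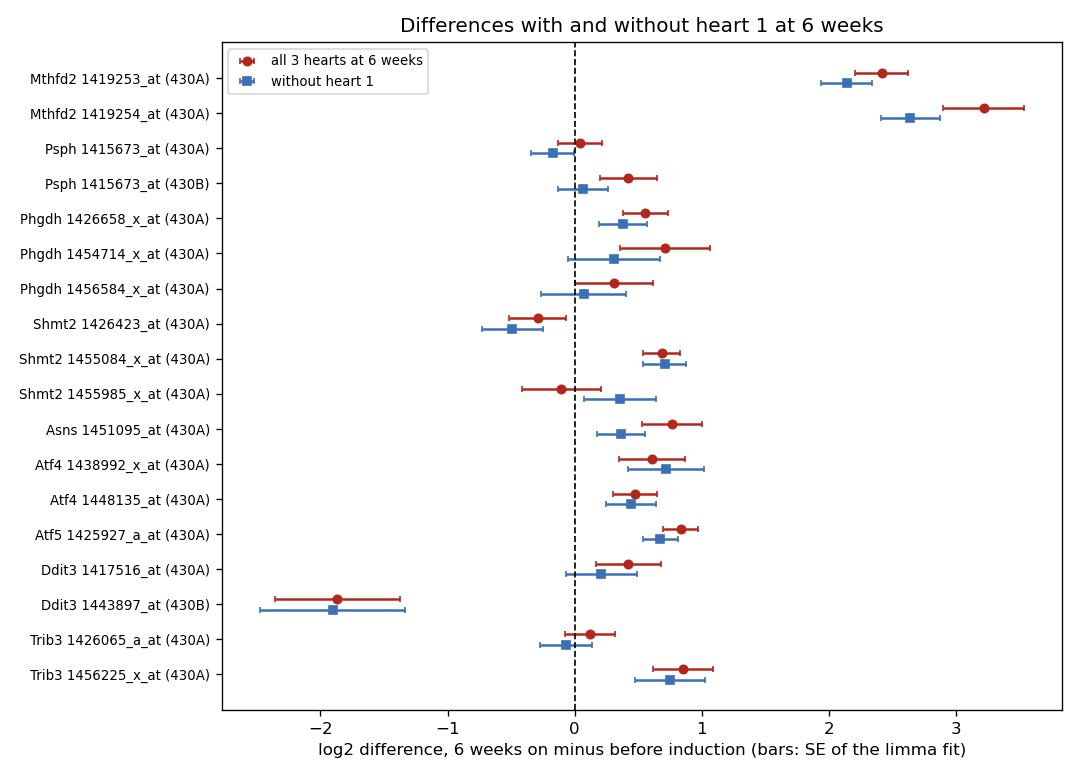
Log2 difference between 6 weeks on and before induction (x axis) for each tested member probe set (rows), with all 3 hearts (circles) and without heart 1 (squares), bars giving the standard error of the limma fit. Both Mthfd2 probe sets stay above 2, while Asns moves to 0.36 from 0.76.

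The count of member probe sets past the threshold at 6 weeks on against before induction was 4 without heart 1, 9 without heart 2 and 6 without heart 3, against 8 with all hearts. The 4 were both Mthfd2 probe sets, Atf5 and Shmt2 1455084_x_at. These fits had 2 hearts left at 6 weeks on, and as the members were chosen by the part of heart 1 in their signal, the counts describe how the set was made.

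**Figure D4:**
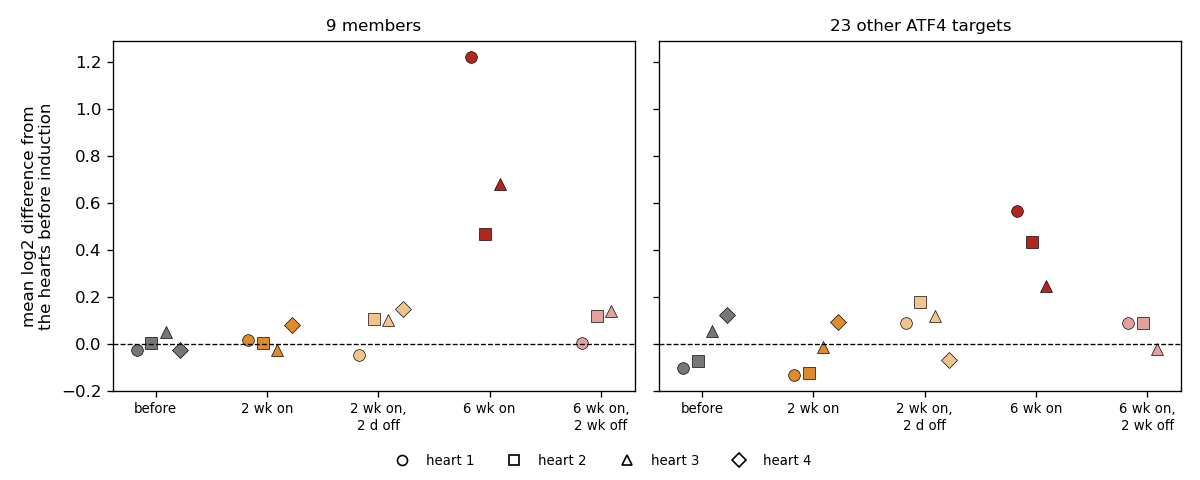
Mean log2 difference from the hearts before induction (y axis) in each heart, by group (x axis, in order of time), over the brightest probe sets of the 9 members (left) and over 23 other ATF4 targets (right). In the left panel the 6-week hearts are at 1.22, 0.47 and 0.68, and in the right panel at 0.57, 0.43 and 0.25. The medians, not plotted, were 0.85, 0.29 and 0.50 for the members and 0.42, 0.17 and -0.03 for the other targets.

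In the lists that follow each gene is counted by its brightest probe set. The lists were chosen with earlier results of these data known, and the genes named are the called ones with the lowest adjusted p. Their adjusted p is that of the fit over all kept probe sets of a chip. The named genes are therefore no independent support for the member values. Of 23 other known targets of ATF4, 5 were called higher and 0 lower at 6 weeks on against before induction, where 13.2% of all tested probe sets were called (1868 higher and 2493 lower), and 1 higher and 5 lower after 2 weeks off against 6 weeks on (10.9% of all called). Ddit4, which encodes REDD1, an inhibitor of mTORC1, rose to 4856, 4636 and 2883 at 6 weeks on, against 571, 496, 610.5 and 349.6 before induction (log2 2.90 ± 0.230, limma adjusted p = 2.35e-07). It had already risen at 2 weeks on, at 891, 824, 992 and 1221 (log2 0.90 ± 0.213, adjusted p = 0.0119), and after 2 weeks off it read 259, 314 and 231. Gpt2, the mitochondrial alanine aminotransferase, rose to 717, 675 and 880.5 at 6 weeks on, against 258, 247, 329 and 254 before induction (log2 1.32 ± 0.171, adjusted p = 4.00e-05). It was called higher at 2 weeks on too (log2 0.57 ± 0.159, limma adjusted p = 0.0309), where its other probe sets were not called. Aldh18a1, which makes the precursor of proline, rose to 506, 370.1 and 565, against 241, 237, 217 and 278 (log2 0.84 ± 0.148, adjusted p = 0.000677). Of their other probe sets at 6 weeks on, 1 of 3 for Gpt2 and 1 of 4 for Aldh18a1 were also called higher and 0 lower. Averaged over the 23 targets, the log2 difference was 0.57 in heart 1, 0.43 in heart 2 and 0.25 in heart 3. The medians over the 23 were lower, at 0.42, 0.17 and -0.03. In these hearts 15, 10 and 10 of the targets exceeded every heart before induction. Single hearts of the other induced and repressed groups had 3 to 8 such targets. The share over all probe sets was not computed, so nothing is read from these counts of targets. The list median at 6 weeks on was 0.19.

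**Figure D5:**
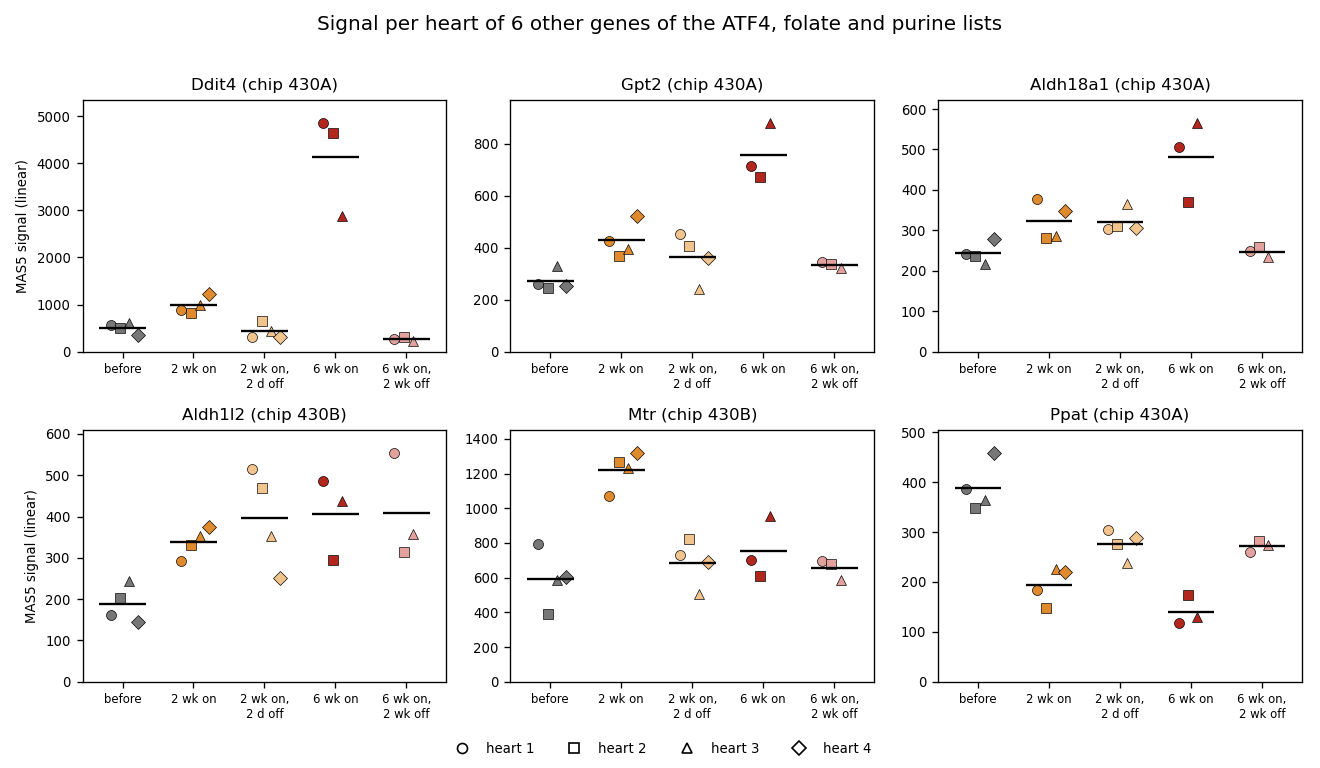
Deposited linear MAS5 signal (y axis) in each heart of the 5 groups (x axis, in order of time) for 6 genes of the ATF4, folate and purine lists, with group means as bars. Ddit4 stands at 2883 or more in all 3 hearts at 6 weeks on, and Ppat at 173 or less, against 348 or more before induction.

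The remaining genes of serine and folate metabolism were counted in the same way. Of 8 tested genes of serine and glycine metabolism, 0 were called higher and 2 lower at 6 weeks on against before induction (13.2% of all called), Dld, a shared subunit of the glycine cleavage system and of pyruvate dehydrogenase (log2 -0.78 ± 0.235, adjusted p = 0.0239), and Slc1a4, a serine and alanine transporter (log2 -0.92 ± 0.264, adjusted p = 0.0191). Both were called higher after 2 weeks off against 6 weeks on, at 1.09 and 0.89. Of 15 folate genes 1 was called higher and 1 lower at 6 weeks on against before induction. Aldh1l2, the mitochondrial enzyme that releases carbon dioxide from formyl folate, rose to 487, 295 and 439 at 6 weeks on, against 162, 202, 244 and 144 before induction (log2 1.06 ± 0.241, adjusted p = 0.0114). It was also called higher than before induction after 2 days off (515, 468, 354 and 251, adjusted p = 0.0279) and after 2 weeks off (553, 314 and 359, adjusted p = 0.0304). Mtr, methionine synthase, rose to 1073, 1269, 1234 and 1318 at 2 weeks on, against 796, 388, 588 and 604 before induction (log2 1.07 ± 0.188, adjusted p = 0.00553), and was not called at 6 weeks on. Its other probe set, 1458532_at, differed in the opposite direction at 2 weeks on and was not called (log2 -0.43, adjusted p = 0.443).

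Purine synthesis, which consumes mitochondrial one-carbon units, moved in both directions. Of 12 tested genes 2 were called higher and 4 lower at 6 weeks on against before induction, where 13.2% of all tested probe sets were called, and 4 were called higher and 0 lower after 2 weeks off against 6 weeks on. Ppat, the first committed enzyme, fell to 117, 173 and 129.8 at 6 weeks on, against 387, 348, 364 and 458 before induction (log2 -1.21 ± 0.153, adjusted p = 3.15e-05). It had fallen at 2 weeks on too, at 184, 148, 226 and 221 (log2 -0.85 ± 0.142, adjusted p = 0.00104). Of its other 2 probe sets, 1428543_at was also called lower at 2 weeks on (log2 -0.77, adjusted p = 0.0309), and at 6 weeks on 0 were called. Gmps, GMP synthetase, rose at 2 weeks on to 1566, 2047, 1987 and 1820.4, against 1028, 752, 779.8 and 934 before induction (log2 1.08 ± 0.151, adjusted p = 0.000597), while its other 2 probe sets were not called at that time (log2 0.51 and 0.55). Gmps was also called higher at 6 weeks on (log2 0.62 ± 0.163, limma adjusted p = 0.0272), and its other 2 probe sets were not (log2 0.24 and -0.04). The sum of proliferation markers was also high at 2 weeks on, as given above, and its part in the values of Mtr and Gmps was not tested. Adssl1, the muscle adenylosuccinate synthase, fell at both times, at log2 -0.83 ± 0.152 and -1.07 ± 0.164.

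The kinases and regulators upstream of ATF4 and the other stress arms were called at about the share of all probe sets at 6 weeks on (13.2%). Of 10 tested eIF2 kinases and regulators 0 were called higher and 1 lower at 6 weeks on against before induction, Dele1, which relays mitochondrial stress to eIF2 (log2 -0.42 ± 0.142, adjusted p = 0.0407), whose other probe set was not called (log2 -0.28, adjusted p = 0.274). Oma1, the mitochondrial protease that acts on DELE1, fell after 2 weeks off to 911, 769 and 941, against 1234, 1021 and 1333 at 6 weeks on (log2 -0.43 ± 0.135, adjusted p = 0.0318). It was not called at 6 weeks on against before induction (log2 0.14 ± 0.126, adjusted p = 0.469). After 2 days off it was called lower than at 2 weeks on (log2 -0.56 ± 0.117, adjusted p = 0.00307) and than before induction (log2 -0.48 ± 0.117, adjusted p = 0.0208). Of 8 genes of the other endoplasmic reticulum stress arms 1 was called higher and 0 lower at 6 weeks on, Manf, a secreted stress protein, at 1517, 867 and 1230.5 against 547, 714, 701 and 821 before induction (log2 0.73 ± 0.173, adjusted p = 0.00579). Manf was already called higher at 2 weeks on (log2 0.85 ± 0.160, limma adjusted p = 0.00258). After 2 days off it was called lower than at 2 weeks on (log2 -0.87 ± 0.160, adjusted p = 0.00138). Hspa5, the chaperone BiP, had probe sets with opposite calls at 6 weeks on, -0.51 on chip 430A (1427464_s_at, adjusted p = 0.0166) and 0.70 on chip 430B (1447824_x_at, adjusted p = 0.0103), while its brightest probe set was not called.

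The probe sets whose log2 signal followed a member most closely over the 18 hearts were sought on the same chip. For Mthfd2 1419254_at the closest were Anxa6 (Pearson r = 0.89), Ints6 (0.89), Cdkn1a (0.88) and Gars (0.86). Without the 2 hearts farthest from the Mthfd2 median, hearts 1 and 3 at 6 weeks on, the r of these 4 fell to values between 0.68 and 0.79. Heart 2 at 6 weeks on was still among the hearts used. For Atf4 1448135_at they were Map2k4 (0.77), Heatr1 (0.76), Rap1gap (0.76) and Rabep1 (0.75). Without the 2 hearts farthest from the Atf4 median these r were 0.81, 0.75, 0.58 and 0.51. For Ddit3 1417516_at they were Nisch (0.90), Pms2 (0.82), Washc2 (0.82) and Tfip11 (0.80), and without the 2 hearts farthest from its median 0.87, 0.70, 0.82 and 0.69. Ints6 read 3928, 2656.5 and 4212 at 6 weeks on with a mean of 286 before induction, and its highest heart was heart 3, where that of Mthfd2 was heart 1. The hearts share group, array and scaling, and these r values describe the 18 hearts without a test.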

How the data were processed

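RNA of 18 hearts was hybridised to chips 430A and 430B, 36 arrays in all. The deposited values are linear intensity values, 1 MAS5 signal per probe set per the submitters' processing notes (version not stated there). The 2% trimmed mean was equal on all arrays of a chip (500.2 on 430A and 122.5 on 430B, within 0.006%), so signals were used as deposited. Arrays have no read depth, and their number limits the precision. No scan dates were used and no batch was tested.

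Symbols came from the platform annotation, where 20393 probe sets of 430A and 14674 of 430B had 1 symbol, 691 and 245 several, and 1606 and 7656 none. Probe sets with a mean over all arrays of at least 20% of the trimmed mean were kept, 15565 and 17519. For each chip, limma 3.58.1 (R 4.3.3; lmFit, eBayes with trend) was run on log2 of the signal plus an offset of 10% of the trimmed mean (50.0 and 12.3), with 1 mean per group. P-values were adjusted by Benjamini-Hochberg within a chip over all kept probe sets, and a call is an adjusted p under 0.05. Log2 differences carry the model's SE, means their SD. The script was tested on simulated data.

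The members and lists were chosen with earlier results of these data known. All member probe sets are described, the brightest standing for a gene, with up to 3 called genes of each other list by adjusted p, the 4 probe sets most like Mthfd2, Atf4 and Ddit3 by Pearson r, and Akt1. Same-numbered hearts of different groups did not deviate together: correlations of their deviations ran from -0.16 to 0.33 over 66 pairs and 7 exceeded 0.1.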

Additional observations from a re-analysis of the deposited data

Results flagged for a closer look

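Of the groups of 4 hearts, 7 member readings held 1 heart far from the other 3 by Dixon's test at the 95% level, which chance flags in about 1 in 20 groups, and 54 groups of 4 were tested. In Phgdh 1426658_x_at heart 2 before induction read 447.9, where the others read 666.5 to 705.4. In Phgdh 1454714_x_at heart 3 before induction read 148.4, where the others read 87.4 to 97.4, and heart 4 after 2 days off read 121.4, where the others read 38.2 to 50.6. In Atf4 1448135_at heart 4 after 2 days off read 2057.8, where the others read 1089.1 to 1197.4, and heart 2 at 2 weeks on read 1055.3, where the others read 1291.3 to 1324.9. In Atf5 1425927_a_at heart 1 before induction read 1067.5, where the others read 940.3 to 948.5. In Ddit3 1443897_at heart 1 at 2 weeks on read 112.471, where the others read 9.68 to 18.1. Groups of 3 hearts, the 6-week induced group among them, were not tested for single hearts.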

How the results depend on the processing

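Of the values of the brightest member probe sets under the alternatives, none changed direction after being called. The count of member probe sets called after 2 days off against before induction was 1, and it was 0 with an offset of 20% of the trimmed mean, without the filter on dim probe sets, with arrays scaled to a common median, with eBayes without a trend, with the Actb ratio as a covariate and without hearts 3 and 4 before induction. Without the filter the count at 2 weeks on against before induction was 1, against 0. With a filter at 50% the count after 2 days off against 2 weeks on was 1, against 2. The count after 2 weeks off against 6 weeks on was 5, and it was 9 with arrays scaled to a common median, 3 with the Actb ratio as a covariate and 2 with only the 2 groups compared. With only the 2 groups compared, the count at 6 weeks on against 2 weeks on was 3, against 6. With the replicate block the counts were 9 at 6 weeks on against before induction, 5 at 6 weeks against 2 weeks on, 4 after 2 weeks off against 6 weeks on, 2 after 2 days off against 2 weeks on, 0 after 2 days off against before induction, and 0 in the other 2 comparisons. Hearts with the same number correlated best with their own number in 15 of 66 pairs, so the numbers are not taken to pair the hearts. Leaving out 1 heart at a time gave 0 to 1 calls at 2 weeks on against before induction, 0 to 2 after 2 days off against 2 weeks on, 0 to 2 after 2 days off against before induction, 4 to 9 at 6 weeks on against before induction, 3 to 7 at 6 weeks against 2 weeks on, 3 to 10 after 2 weeks off against 6 weeks on, and 0 to 1 after 2 weeks off against before induction. The lowest value at 6 weeks on against before induction came without heart 1 at 6 weeks on. The cause of these moves was not tested. Counts that use the 6-week hearts describe members chosen by those signals and support nothing. Signals near the offset, such as those of Ddit3 on chip 430B, limit the size of a log2 difference, and detection calls were not analysed here.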
